A study of Mus musculus with 10 samples.

Results

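The imprinted growth genes are genes transcribed mainly from the maternal or mainly from the paternal chromosome, whose products promote or restrain the growth of the fetus. They were chosen by name: 10 symbols were listed (Igf2, H19, Dlk1, Meg3, Peg3, Mest, Plagl1, Peg10, Cdkn1c and Grb10), and each gene was represented by the probe set that the array annotation assigns to that symbol alone. For 9 of them such a probe set was found, out of 19937 genes represented in all, and each of the 9 had exactly 1. H19 had none in the annotation used and is not analysed here. The rule itself uses no expression value. The paternally expressed genes are Igf2, Dlk1, Peg3, Mest, Plagl1 and Peg10, and the maternally expressed genes are Meg3, Cdkn1c and Grb10, as the textbook direction of imprinting. The arrays measure RNA from both alleles together and do not test imprinting.

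RNA was hybridized to mouse Gene 1.0 ST arrays. The first group, sacral neural crest progenitors (NCPs), holds 3 arrays of cells from embryonic day 13 transgenic mice of the line C3Fe.Tg(Sox10-HIST2H2BE/Venus)ASout, called Sox10-H2BVenus. In these mice, cells that use the Sox10 regulatory sequence have a fluorescent nucleus, so a cell that has recently switched Sox10 off can still carry the label. Ganglia or tracts of several embryos were pooled for a sample, according to the study's methods. The lower urogenital tract around the pelvic ganglia was dissected, dissociated and sorted for the fluorescent cells. The second group, total embryo, holds 7 arrays. Its labels give neither age nor genotype. No drug or other treatment is named for either group, and cell type, dissection, dissociation and sorting cannot be told apart in the comparison. The 3 NCP arrays carry 3 different RNA codes in their names and 1 date, and the 7 total embryo arrays carry 2 RNA codes and 7 dates, 1 of them shared with the NCP arrays. Arrays with the same code were taken as repeats of 1 RNA isolate, so the p-values measure the spread between arrays, which is partly technical.

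Imprinting is set in the germ line, where the control region of a gene cluster is methylated in sperm or in eggs, and the mark is then kept through development. Imprinted genes sit in clusters, often with a noncoding RNA, and many are strongly transcribed in the embryo and placenta and fall silent after birth. As a rule of thumb, paternally expressed genes promote fetal growth and maternally expressed genes restrain it, with insulin-like growth factor 2 (Igf2) as the classical example of the first and the cell cycle inhibitor Cdkn1c of the second.

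All values are log2 values from robust Multi-Array Average (RMA) normalization, and a change is the NCP mean minus the total embryo mean. The NCP arrays spanned a narrower range of values than the total embryo arrays: the SD over probe sets was 0.97 to 1.13 against 1.78 to 1.91. As a measured floor, the 1208 probe sets for receptors of odours and pheromones (olfactory and vomeronasal), used in the nose and in few other places, were read on each array. Their array median was 5.39 to 5.61 in NCPs and 3.62 to 3.88 in total embryo, and their 95th percentile was 6.65 to 6.88 and 5.30 to 5.49. NCP replicate 2 stood apart in the genes that every cell uses: the median of 9 housekeeping genes lay 0.72 above the receptor median on this array, 3.07 and 4.22 above it on NCP replicates 1 and 3, and 6.70 to 7.07 above it in total embryo. Sox10, the gene behind the sort, read 7.14 to 7.95 in NCPs and 6.38 to 6.65 in total embryo and was higher in NCPs (95% confidence interval of the change 0.62 to 1.39, adjusted p = 2.78e-04). The receptor probe sets had a median change of 1.66, and with the arrays centred on them Sox10 changed by -0.69. Of the neural crest and glial markers 3 of 11 were higher and 4 lower, among the latter Fabp7 and Ednrb, and of the autonomic neuron markers 7 of 12 were higher and 2 lower, beside 39.6% of all probe sets that were higher and 27.5% that were lower.

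Igf2, the secreted growth factor of the set, was far lower in NCPs. It read 7.53, 7.65 and 8.22 on the 3 NCP arrays. In total embryo its lowest, median and highest values were 10.19, 10.49 and 10.94. Every NCP array lay below every total embryo array, by a gap wider than the spread within either group. The change was -2.78 ± 0.22 (SE), or 6.86-fold lower, with an adjusted p of 3.45e-07 (limma, Benjamini-Hochberg over 28192 probe sets). Igf2 nevertheless stood well above the floor in NCPs, at the 99.2, 99.1 and 99.9 percentile of the receptor genes on the 3 arrays. In bulk RNA, fewer cells that express a gene and less RNA of it per cell cannot be told apart.

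Dlk1, a transmembrane ligand related to the Notch ligands that keeps precursor cells undifferentiated, was also lower. Its NCP values were 6.49, 5.94 and 7.18, and in total embryo it ranged from 7.53 through a median of 7.99 to 8.56. The groups did not overlap, and NCP replicate 3 came closest to total embryo. The change was -1.48 ± 0.28 (SE), with an adjusted p of 4.65e-04. Against the receptor genes Dlk1 stood at the 91.1, 63.9 and 98.8 percentile on the 3 NCP arrays, so only replicate 3 put it above the 95th.

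Of the genes that restrain growth, Grb10 was lower in NCPs and Cdkn1c did not pass the threshold, a difference between genes that was not tested. Cdkn1c encodes p57Kip2, which blocks cyclin-dependent kinases and takes cells out of the cycle. It read 9.47, 9.01 and 9.62 in NCPs and 9.23, 9.73 and 10.20 (lowest, median, highest) in total embryo. These ranges overlapped, and the change of -0.36 (95% confidence interval -0.85 to 0.12) did not pass the threshold (adjusted p = 0.169). It was the only one of the 9 genes not to pass. On all 10 arrays Cdkn1c exceeded the 95th percentile of the receptor genes. Ranked among all probe sets of the same array, it stood at the 98.2, 98.5 and 98.1 percentile in NCPs and between the 94.7 and 97.6 percentile in total embryo, so its rank was higher on each NCP array than on any total embryo array.

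Grb10 encodes an adaptor that binds the insulin and IGF1 receptors and damps their signal. It is maternally expressed in most tissues but paternally in neurons of the brain. Its NCP values were 7.36, 6.46 and 7.14, against 8.21, 8.80 and 9.05 (lowest, median, highest) in total embryo. No NCP array reached the total embryo range. The change was -1.72 ± 0.24 (SE), with an adjusted p of 3.62e-05.

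Peg3 and Plagl1 encode zinc finger proteins that bind DNA, and Plagl1 is known to regulate other imprinted genes. Of the 9 genes Peg3 had the largest change in log2 value. It read 6.64, 5.92 and 6.84 on the NCP arrays and 9.76, 10.05 and 10.31 (lowest, median, highest) in total embryo. The gap between the groups was wider than the whole span of either, and the change was -3.55 ± 0.20 (SE), with an adjusted p of 3.95e-08. In NCPs Peg3 stood at the 93.9, 63.4 and 97.0 percentile of the receptor genes, above the 95th on 1 of 3 arrays, so the size of the decrease rests on NCP values near the floor. Its rank among all probe sets was 72.9, 38.0 and 79.3 against 96.4 to 97.7 in total embryo. Plagl1 read 7.21, 6.40 and 7.0 in NCPs and 8.73, 8.91 and 9.20 (lowest, median, highest) in total embryo. It was lower on every NCP array, with a change of -2.12 ± 0.20 (SE) and an adjusted p of 1.36e-06.

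Because Plagl1 is a member, the RefSeq promoters of the members (GRCm38.p6, 250 bases before to 50 after each start) were searched on both strands for the core of the published PLAGL1 site, GGGGCCCC, which reads the same on both strands. Promoters were at hand for 7 of the 9 genes, 14 in all, with none for Cdkn1c and Peg10. The letters occurred in 1 of these 14, that of Peg3, and in 1.08% of 32851 mouse promoters. A match describes letters in a window and is not a binding site. The promoter of Peg3, the gene with the largest change in log2 value, lies at chr7:6730370-6730669 on the minus strand and is shown 5′ to 3′ with the motif in capitals.
Peg3 promoter: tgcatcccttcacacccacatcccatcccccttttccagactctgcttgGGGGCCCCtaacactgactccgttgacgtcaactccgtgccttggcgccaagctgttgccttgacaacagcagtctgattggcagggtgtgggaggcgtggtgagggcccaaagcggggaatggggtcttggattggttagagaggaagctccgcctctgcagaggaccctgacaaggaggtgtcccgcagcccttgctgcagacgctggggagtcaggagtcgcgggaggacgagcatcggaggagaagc

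Mest, a protein with the fold of a hydrolase, and Peg10, a gene derived from a retrotransposon that the placenta needs, share mouse chromosome 6. Mest read 6.88, 7.10 and 7.30 in NCPs and 9.33, 9.70 and 10.07 (lowest, median, highest) in total embryo. The NCP arrays were close to each other and all below total embryo, with a change of -2.61 ± 0.18 (SE) and an adjusted p of 1.42e-07. Peg10 was the most variable gene in NCPs, with 8.41, 7.58 and 9.58, while total embryo held between 9.56 and 9.95 with a median of 9.78. NCP replicate 3 fell inside the total embryo range and the other NCP arrays below it. The change of -1.26 ± 0.31 (SE) passed the threshold (adjusted p = 0.00327), but with arrays averaged per RNA isolate the change was -1.25 and did not.

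Meg3, the maternally expressed long noncoding RNA next to Dlk1 on chromosome 12, read 6.47, 6.18 and 6.46 in NCPs. Total embryo gave 7.86, 8.30 and 8.54 (lowest, median, highest). The groups were apart on all arrays, with a change of -1.86 ± 0.18 (SE) and an adjusted p of 2.31e-06. No NCP array put Meg3 above the 95th percentile of the receptor genes, whereas all 7 total embryo arrays did.

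**Figure D1:**
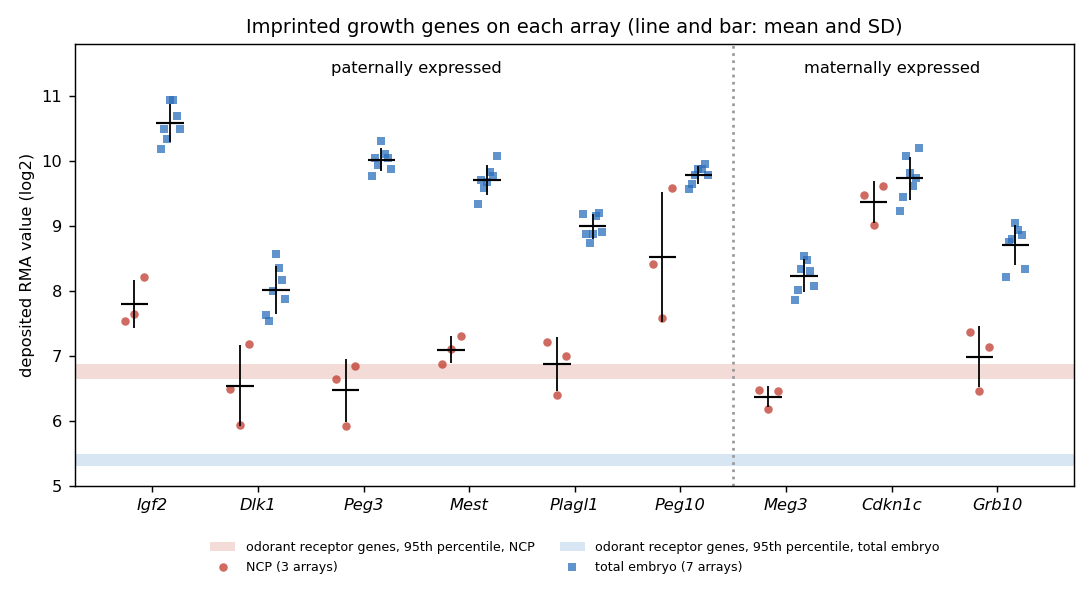
Deposited log2 value (y axis) of each imprinted growth gene (x axis) on the 3 NCP arrays (circles) and 7 total embryo arrays (squares), with mean and SD, and the range over arrays of the 95th percentile of the odorant receptor genes (olfactory and vomeronasal) as bands. Only Cdkn1c and Peg10 overlap between the groups, and most NCP values of Dlk1, Peg3 and Meg3 lie in or below the NCP band.

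As a set, 8 of the 9 genes were lower in NCPs, 1 did not pass and 0 were higher, while 27.5% of all probe sets were lower and 39.6% higher. For 7 of the 9 the highest NCP value was under the lowest total embryo value, which held for 21.5% of all probe sets. The median change was -1.86 over the 9 genes and 0.23 over all probe sets. By parental origin, the 6 paternally expressed genes were all lower with a median of -2.37, and of the 3 maternally expressed genes 2 were lower with a median of -1.72. The difference between these medians was not tested, since genes are not replicates. With the arrays averaged per RNA isolate, 3 against 2, there were 7 of 9 lower and 0 higher, against 14.8% and 20.4% of all probe sets. Restricted to the 1 total embryo array that shares its date with the NCP arrays, which gives an arm of 1 array with no spread of its own, the change of the 8 lower genes ran from -3.29 for Peg3 to -1.04 for Peg10 and 1 of them passed, and Cdkn1c gave 0.13. The lone array was assumed to vary like the NCP arrays.

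The values also differed between arrays and RNA isolates within the groups. How many of all probe sets showed the same orders was not counted, so these are descriptions. NCP replicate 2 was the lowest of the 3 NCP arrays for 7 of the 9 genes and replicate 3 the highest for 6, the same order as the housekeeping genes. Without NCP replicate 2 the count remained 8 lower and 0 higher, with Peg10 at -0.79 and Cdkn1c at -0.19. The mean of the total embryo arrays of the code that does not belong to the NCP series was higher than that of the other code for all 9 genes. The gap was very small for Plagl1 (8.991 against 8.989) and Mest (9.714 against 9.699) and wider for Dlk1 (8.267 against 7.677). Against the code of the NCP series 7 genes were lower in NCPs, and against the other code 8.

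The decreases also followed the level of a gene in total embryo. Probe sets with a total embryo mean of 5 to 6 had a median change of 0.54, those of 8 to 9 had -1.82, and those of 9 to 10 had -2.38. All 9 imprinted growth genes had a total embryo mean above 8. A level adjustment was therefore computed, in which the smooth trend of each array's difference from the total embryo mean, as a function of that mean, was subtracted from the array. It assumes that most genes of a given level do not change, which cannot be checked from these arrays. The total embryo mean enters both the level and the change, so these are not independent in the trend or in the adjustment. After the level adjustment 8.29% of all probe sets were lower and 10.3% higher.

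After the level adjustment 1 of the 9 genes was lower, 2 were higher and 6 did not pass, with a median of -0.03. Peg3 stayed lower, at -1.18 (adjusted p = 4.83e-04). Cdkn1c was higher by 1.95 (95% confidence interval 1.46 to 2.45, adjusted p = 1.54e-04), and Peg10 by 1.07 (0.65 to 1.49, adjusted p = 0.00258). The estimates of the other 6 genes lay between -0.31 for Igf2 (-0.90 to 0.28) and 0.23 for Grb10. Their intervals all included 0, which does not show that they were alike in both groups. With arrays averaged per RNA isolate before the level adjustment, the estimates were -1.18 for Peg3 (adjusted p = 0.249), 1.95 for Cdkn1c (adjusted p = 0.089) and 1.07 for Peg10 (adjusted p = 0.374), so none of the 3 calls held. Leaving out any array kept Cdkn1c between 1.83 and 2.08, Peg10 between 0.79 and 1.23, and Peg3 between -1.27 and -1.07. Cdkn1c was also higher after cyclic loess (1.68) and after renewed quantile normalization (1.02), but lower by centring on the receptor genes (-2.06), so the direction for this gene turned with the scaling, whereas Peg3 was lower under each scaling of the 10 arrays.

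**Figure D2:**
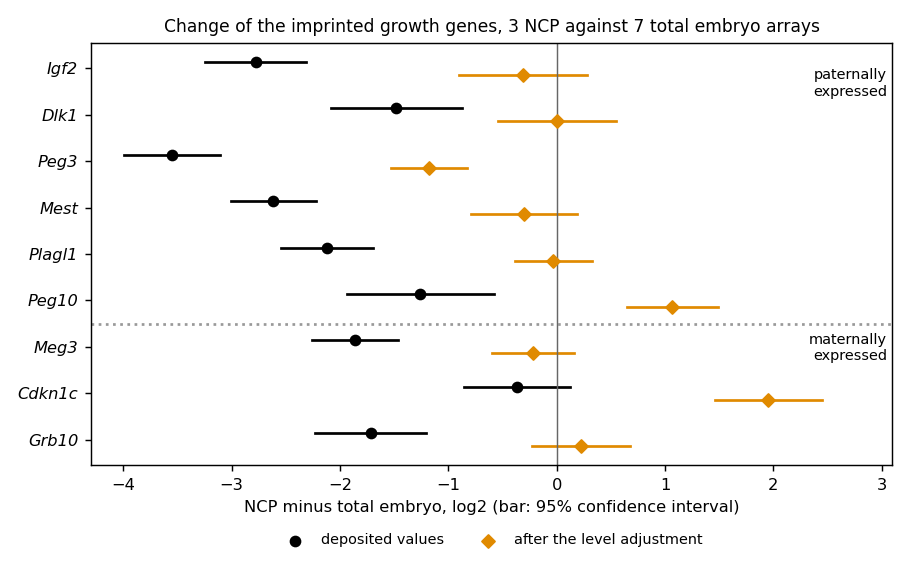
Change of each imprinted growth gene (x axis, NCP minus total embryo, log2) with its 95% confidence interval, from the deposited values (black circles) and after the level adjustment (orange diamonds). Only Peg3 stays below 0 with its interval, and Cdkn1c and Peg10 move to the right of 0.

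**Figure D3:**
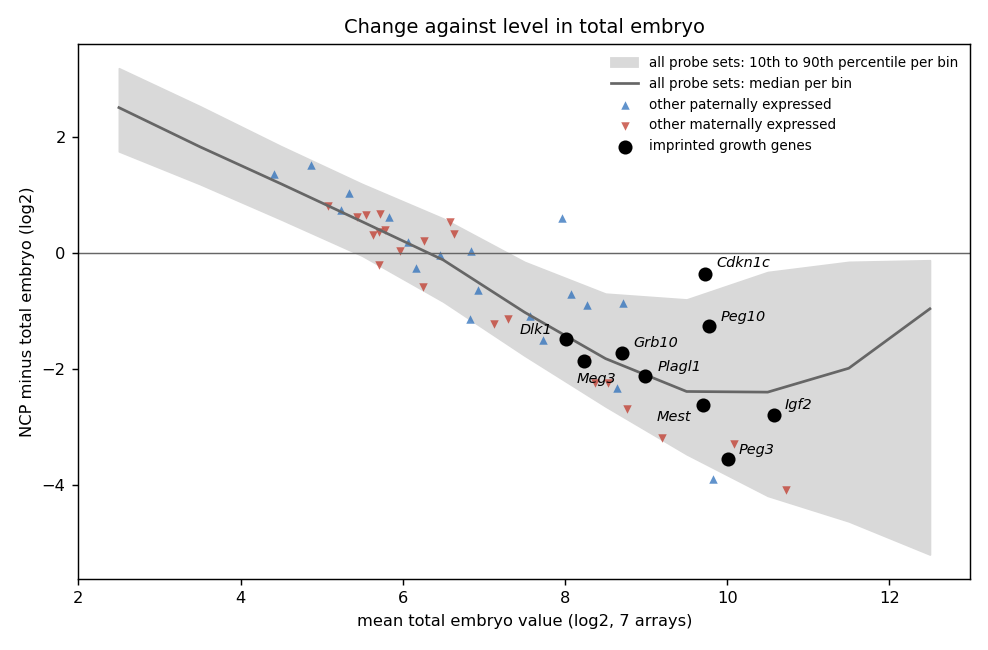
Change (y axis, NCP minus total embryo, log2) against the mean total embryo value (x axis, log2) for the imprinted growth genes (black) and other imprinted genes (triangles), over the median and the 10th to 90th percentiles of all probe sets in bins of total embryo level. Most imprinted growth genes sit near the median line, with Cdkn1c and Peg10 above it and Peg3 below.

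The total embryo RNA contains tissues that the sort left out, and most of their markers fell as well. All 10 measured liver markers were lower in NCPs, with an array median over the list of 6.22 to 6.55 against 11.34 to 11.83, and 9 of the 10 had a mean receptor percentile under 95 in NCPs. The defining liver marker Alb changed by -6.50. Of the mesenchymal markers 10 of 11 were lower and of the striated muscle markers 11 of 12. So were 6 of 7 smooth muscle, 5 of 6 cartilage, 5 of 7 endothelial, 6 of 8 epithelial and 6 of 6 immune markers. In smooth muscle 1 marker was higher, and of the 4 erythroid markers 2 were lower and 2 higher. The 9 measured housekeeping genes, which every cell uses, were all lower too, with a median of -1.59. Of all probe sets 27.5% were lower. After the level adjustment 9 of 10 liver, 7 of 12 striated muscle and 6 of 11 mesenchymal markers were lower, and 1 mesenchymal marker was higher. The same adjustment left 1 of the 9 imprinted growth genes and 8.29% of all probe sets lower. The share that liver, mesenchyme and muscle had in the decreases of the imprinted growth genes was not tested.

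Neighbouring genes were compared on each array by the difference of their log2 values, which cancels a shift common to all genes of an array but not a change of its range. The 3 differences were tested by an exact permutation test, two-sided, 3 against 7 arrays, whose smallest possible p is 0.0167. It takes arrays as units, although the total embryo arrays repeat 2 RNA isolates. With isolates as units, 3 against 2, the smallest possible p is 0.2, so no pair could pass. Dlk1 minus Meg3, the pair expressed from opposite alleles, was 0.17 ± 0.50 (SD, n = 3) in NCPs and -0.22 ± 0.17 (SD, n = 7) in total embryo, a change of 0.38 (exact permutation p = 0.183, adjusted over the 3 pairs 0.275). Peg10 minus Sgce, neighbours that are both paternally expressed, changed by 0.23 (exact permutation p = 0.55) and by -0.22 without NCP replicate 3. The change was 1.31 after the level adjustment, 1.37 after quantile normalization and 1.19 after cyclic loess (exact permutation p = 0.0167 for each, not adjusted over the pairs). Sgce exceeded the 95th percentile of the receptor genes on 0 NCP and 7 total embryo arrays, so its NCP values were near the floor. Peg3 minus Usp29, another pair of paternally expressed neighbours, was 0.56 in NCPs and 3.85 in total embryo. The change was -3.29, with the smallest p that the test can give (exact permutation p = 0.0167, adjusted 0.05). Usp29 itself, a ubiquitin-specific protease gene, read 6.21, 5.64 and 5.89 in NCPs and 5.78 to 6.55 in total embryo, and exceeded the 95th percentile of the receptor genes on no NCP array, and Peg3 on 1, so the NCP difference is one between values at or near the floor. After the level adjustment the change of Peg3 minus Usp29 was -0.81 (exact permutation p = 0.0333, not adjusted over the pairs).

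Other imprinted genes did not all move with the growth genes. Of 24 other genes listed as paternally expressed 19 were measured. Of all probe sets 39.6% were higher and 27.5% lower. Of the 19 genes 5 were higher, 8 lower and 6 not past the threshold, with a median of -0.26. The largest decreases were those of Slc38a4, an amino acid transporter, at -3.89, the noncoding RNA Airn at -2.32, and Sgce, a sarcoglycan, at -1.49. The largest increases were those of Mkrn3 at 1.51, Dio3, which inactivates thyroid hormone, at 1.35, and Sfmbt2 at 1.03. Of the 5 genes that rose, Dio3 and Rasgrf1 were above the 95th percentile of the receptor genes on no array, Sfmbt2 on 0 NCP and 2 total embryo arrays, Mkrn3 on 1 NCP and 0 total embryo arrays, and Magel2 on 1 NCP and 7 total embryo arrays, and the receptor probe sets themselves had a median change of 1.66, with 1157 of 1208 higher.

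Of 25 other genes listed as maternally expressed 22 were measured. Imprinting can be limited to some tissues, and that of the genes of both lists in the embryo or in NCPs was not tested. Of all probe sets 39.6% were higher and 27.5% lower. Of the 22 genes 5 were higher, 10 lower and 7 not past the threshold, with a median of -0.09. Dcn, the matrix proteoglycan decorin of connective tissue, read 7.08, 6.01 and 6.89 in NCPs and at least 10.62 in total embryo, a change of -4.07. Cd81, a tetraspanin, changed by -3.29 and Rian, a noncoding RNA of the Dlk1 cluster, by -3.18. The increases were small: 0.81 for Ascl2, a transcription factor of the placenta, 0.67 for Tssc4, which only just passed (adjusted p = 0.04995), and 0.62 for Calcr, the calcitonin receptor. Ascl2 was above the 95th percentile of the receptor genes on no array. Tssc4 exceeded it on 1 NCP and 6 total embryo arrays, and Calcr on 0 and 4. After the level adjustment 1 of the 19 paternally expressed genes was lower and 3 higher, and 6 of the 22 maternally expressed genes were lower and 2 higher. Slc38a4, Dcn, Cd81 and Rian were among those that stayed lower. After the level adjustment 8.29% of all probe sets were lower and 10.3% higher.

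Ndn, the paternally expressed gene of the protein necdin, which is abundant in differentiating neurons, showed how far the NCP arrays could differ. It read 8.65, 5.51 and 9.39 in NCPs against 8.19, 8.76 and 9.18 (lowest, median, highest) in total embryo. Replicates 1 and 3 were inside or above the total embryo range and replicate 2 was near the receptor median. The change of -0.86 ± 0.60 (SE) did not pass (adjusted p = 0.223), and without replicate 2 it was 0.31. Ndn was chosen after its values were seen.

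The receptors and carriers of IGF2 were mostly lower as well. Of 8 measured ligands, receptors and receptor substrates 6 were lower and 1 higher, with a median of -1.74. Of all probe sets 27.5% were lower and 39.6% higher. At the total embryo level of Irs1 and Igf2r, 8 to 9, the median probe set changed by -1.82. At that of Insr, 9 to 10, it changed by -2.38. Igf2r, the maternally expressed receptor that clears IGF2 from outside the cell, read 6.36, 5.79 and 6.72 in NCPs and at least 8.25 in total embryo, a change of -2.24 ± 0.20 (SE). Igf1r, through which IGF2 signals, changed by -1.24 and Insr, the insulin receptor, by -2.77. The substrate Irs1 had the largest decrease of the list, -3.18, followed by Insr, and Irs4 was the gene that rose, by 0.76. Irs4 was above the 95th percentile of the receptor genes on 0 NCP and 6 total embryo arrays. After the level adjustment Igf1r (-0.68) and Irs1 (-1.26) stayed lower and none was higher.

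Of the 10 binding proteins and related genes that hold or release IGFs 6 were lower and 0 higher, led by Igfbp1 at -1.89 and Igfbp3 at -1.69, and none passed after the level adjustment. Igfbp2 and Igfbp7 were among the 6 although their groups overlapped. Of all probe sets 27.5% were lower and 39.6% higher. Among the RNA-binding proteins that attach to Igf2 mRNA, Igf2bp3 was lower, with a change of -1.21 ± 0.17 (SE), and Igf2bp1 gave 0.62 (adjusted p = 0.0814). Igf2bp2 had no single-symbol probe set. The related Lin28b and Lin28a were higher, by 1.32 and 1.07. They exceeded the 95th percentile of the receptor genes on 1 and 2 NCP arrays and on 1 and 6 total embryo arrays. None of these 4 passed after the level adjustment.

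The genes that set or keep imprints changed in both directions: of 15, 4 were higher and 8 lower, beside 39.6% and 27.5% of all probe sets. The largest decreases were -1.59 for Ctcf, the insulator protein that separates Igf2 from its enhancers on the maternal chromosome, and -1.56 for Dnmt3a, a de novo DNA methyltransferase. Ctcf read 7.61, 6.99 and 5.17 on the NCP arrays, so its mean rested on replicate 3, without which the change was -0.88. The largest increases were those of Dppa3, which guards methylation in the early embryo, at 1.55, and Dnmt3l, a cofactor in germ cells, at 1.27. Both had NCP values that overlapped total embryo. Dnmt3l was above the 95th percentile of the receptor genes on no array, and Dppa3 on 1 NCP and 0 total embryo arrays. The receptor genes themselves had a median change of 1.66. After the level adjustment 1 gene of the list, Dnmt1, was higher and none lower.

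Of the other inhibitors of the cell cycle, Cdkn2c was lower (-0.76), Cdkn2a higher (1.08), and 3 of the 5 measured did not pass. Averaged over the NCP arrays, the receptor percentile of each of these 5 was under 95, although Cdkn1b read 8.19 and 9.25 on replicates 1 and 2 and 5.94 on replicate 3. Cdkn1c was above the 95th percentile on all 3. Cdkn2c was the single gene of this list past the threshold after the level adjustment, and it was lower.

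Imprinted clusters also hold microRNA genes, some inside the member genes. The array probes of such a gene read the transcript around the hairpin and not the mature microRNA. The mature sequences, from RefSeq (GRCm38.p6), are shown with the seed, bases 2 to 8, in capitals for the microRNA genes inside Igf2 (Mir483) and Mest (Mir335), for the largest decreases and increases of the Dlk1 cluster, and for Mir377, which was chosen after its values were seen. Both arms are shown for Mir483 and Mir335, and only the arm listed for the others. No seed is shared among those shown, but the seed of miR-376c-5p is also that of miR-376b-5p of the same cluster.
mmu-miR-483-5p, chr7:142654968-142654989, minus strand: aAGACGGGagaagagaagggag
mmu-miR-483-3p, chr7:142654932-142654952, minus strand: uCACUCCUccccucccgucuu
mmu-miR-335-5p, chr6:30741314-30741336, plus strand: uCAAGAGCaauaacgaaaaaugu
mmu-miR-335-3p, chr6:30741354-30741375, plus strand: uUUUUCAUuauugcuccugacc
mmu-miR-370-3p, chr12:109618305-109618326, plus strand: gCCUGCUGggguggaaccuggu
mmu-miR-341-3p, chr12:109611556-109611576, plus strand: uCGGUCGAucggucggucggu
mmu-miR-376c-5p, chr12:109722733-109722754, plus strand: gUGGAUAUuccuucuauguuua
mmu-miR-380-3p, chr12:109711842-109711863, plus strand: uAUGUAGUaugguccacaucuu
mmu-miR-377-3p, chr12:109740553-109740574, plus strand: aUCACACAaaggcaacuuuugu

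From the deposited values Mir483 and Mir335 did not pass the threshold although their hosts did, and the difference from the hosts was not tested. Mir483 read 7.49, 6.99 and 6.88 in NCPs and 6.75 to 7.12 in total embryo, a change of 0.12 (adjusted p = 0.552) where Igf2 changed by -2.78. Mir335 read 6.62, 8.18 and 6.71 and gave 0.66 (adjusted p = 0.0725) where Mest changed by -2.61. In both genes NCP arrays lay inside the total embryo range. After the level adjustment Mir483 was higher, at 0.73 (adjusted p = 0.0124), and Mir335, at 0.83, did not pass. Their hosts Igf2 (-0.31) and Mest (-0.30) did not pass after this adjustment.

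In the Dlk1 to Dio3 cluster 37 microRNA genes were measured. Over the 39 microRNA genes of all clusters 24 were higher, 3 lower and 12 not past the threshold, with a median of 1.23. Of all probe sets 39.6% were higher and 27.5% lower. For 22 of the 39 genes the lowest NCP value was over the highest total embryo value, which held for 31.8% of all probe sets. Most of the increases were at the floor. On the total embryo arrays 23 of the 37 never exceeded the 95th percentile of the receptor genes, and 22 of these 23 were higher, with a median of 1.74 beside 1.66 for the receptor genes. Of the 11 that exceeded it on all 7 total embryo arrays, 0 were higher and 3 lower.

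The largest increase was that of Mir376c, which read 4.26, 5.46 and 4.57 in NCPs and 2.0 to 2.28 in total embryo. Mir380 was next at 2.61. Both were below the 95th percentile of the receptor genes on all 10 arrays. The largest decreases were -1.53 for Mir370 and -0.91 for Mir341, which come next after the start of Rian in genome order. The other was that of Mir665 (-0.74), which lies before that start. Mir377 stood apart from the dim genes: at 7.45, 6.76 and 7.16 in NCPs, against 4.15 to 5.34 in total embryo, it passed the NCP 95th percentile of the receptor genes on 2 arrays, and after the level adjustment it was 1.33 higher. In all, 4 microRNA genes were higher and 1 lower after that adjustment.

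**Figure D4:**
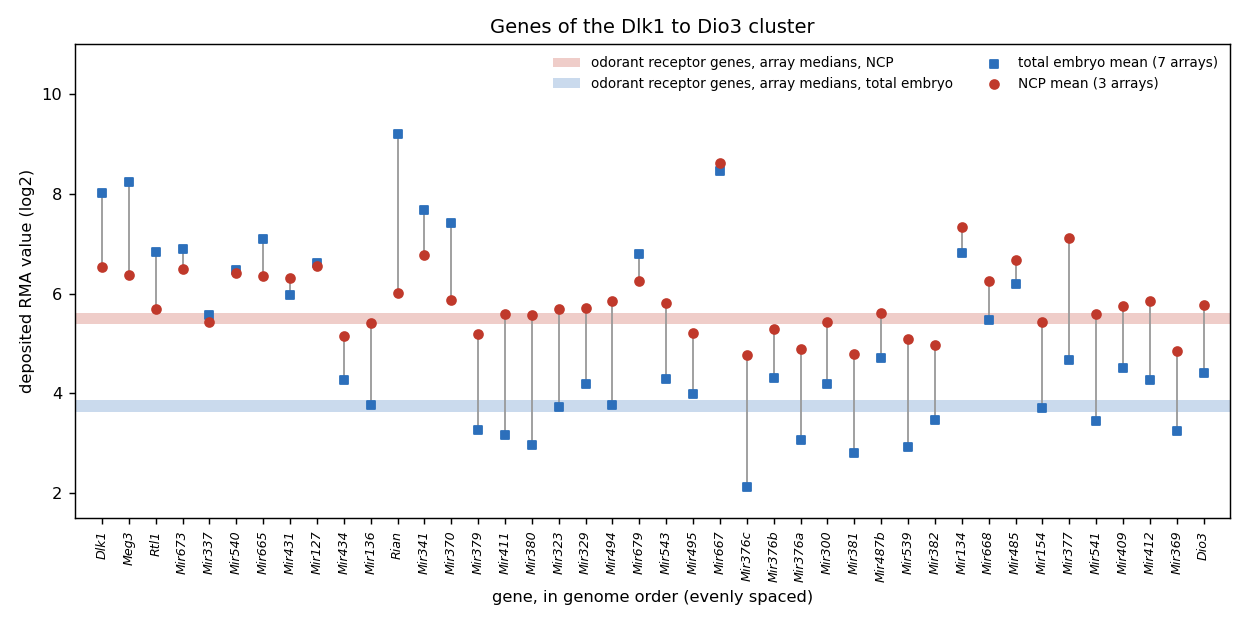
Mean deposited log2 value (y axis) of the measured genes of the Dlk1 to Dio3 cluster (x axis, evenly spaced) in NCPs (circles) and total embryo (squares). The microRNA genes are in genome order, and bands give the range of the array medians of the odorant receptor genes. Dlk1, Meg3 and Rian drop in NCPs, whereas most microRNA genes move from the total embryo band to the NCP band.

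By Pearson correlation over the 10 arrays, the genes most like Igf2 were Ppp2r1a (r = 0.998), Gatad2b (r = 0.997) and Mfap3 (r = 0.996), with changes of -2.26, -2.75 and -1.79. Those most like Dlk1 were Ccnd3 (r = 0.988), Mtss2 (r = 0.987) and Chchd10 (r = 0.986), with changes of -0.38, -1.39 and -1.71. The points share the 2 groups and the difference in range between their arrays.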

How the data were processed

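The authors deposited log2 values that had passed RMA normalization in version 1.1 of the Affymetrix Expression Console, per the labels and the methods, and which arrays were normalized together is not given in the sources used here. The methods name amplification from nanogram amounts of RNA with NuGEN kits, the labels a One-Cycle labelling kit, and which was used for which array is not given in the sources used here. Of 34760 probe sets, 6568 without gene names and with identifiers below the first gene-carrying run were taken as controls and left out. Of the 28192 tested, 21640 had 1 gene symbol, 1321 several and 5231 none. A gene with several probe sets was represented by that with the highest mean. NCP and total embryo were compared with limma 3.58.1 in R 4.3.3 (lmFit, eBayes, two-sided, Benjamini-Hochberg adjusted p under 0.05), and locus pairs by exact permutation (scipy 1.17.1).

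The level adjustment used a lowess span of 0.3. Other alternatives were the choice of control arrays, averaging or blocking RNA isolates, renewed quantile, cyclic loess, median and receptor centring, a dim filter, other variance models, a threshold of 0.01 and leaving out each array. Tested on simulated data, the limma step recovered 42% of changes of 1 log2 unit and 88% of 1.5 among 28192 probe sets. In that simulation 50 probe sets per size were changed and the arrays were independent. In the data 27.5% of probe sets were lower and 39.6% higher, and total embryo arrays repeat RNA isolates. The simulated rates therefore do not carry over to this comparison. The number of arrays limits the precision.

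The members and lists were chosen with earlier results of these data known. Other genes given with values were the largest changes past the threshold in each list (3 in each direction for imprinted genes, at most 2 in the others), partners of the pathway or locus, Sox10, marker genes and the 3 genes most correlated with Igf2 and Dlk1. The planned pair of Igf2 and H19 could not be computed, since H19 had no probe set of its own symbol. Symbols of the array annotation can be old.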

Additional observations from a re-analysis of the deposited data

Results flagged for a closer look

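Among 53 groups of 7 total embryo values of single genes and pairs, 6 had an array set apart from the rest by more than Dixon's critical value of 0.568 for the gap over the range. Chance alone flags about 1 in 20 such groups. None of the 9 imprinted growth genes was among them.

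Sox10 was lowest on total embryo replicate 2, at 6.38, with the next array at 6.53. Sfmbt2 was lowest on replicate 3, at 5.09, with the next at 5.31. Igfbp3 was highest on replicate 3, at 9.09, with the next at 8.44. Dnmt3l was highest on replicate 1, at 4.68, with the next at 4.39. Mir380 was highest on replicate 2, at 3.82, with the next at 2.95. Mir341 was lowest on replicate 3, at 7.12, with the next at 7.63. No cause was tested.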

How the results depend on the processing

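Under the scalings run on all 10 arrays, Dlk1, Peg10, Cdkn1c and Grb10 changed direction under at least 1, and Igf2, Peg3, Mest, Plagl1 and Meg3 stayed negative. From the deposited values 8 were lower and 0 higher, and leaving out any array kept 8 and 0. With the 1 control array of the shared date, which has no spread of its own and is assumed to vary like the NCP arrays, 1 was lower and 0 higher, and Cdkn1c (0.13) and Usp29 (0.022) turned. Cyclic loess gave 2 lower and 2 higher, with Peg10 at 0.81, Cdkn1c at 1.68 and Grb10 at 0.18. Quantile normalization again gave 7 lower and 1 higher, with Peg10 at 0.09 and Cdkn1c at 1.02. The level adjustment gave 1 lower and 2 higher, with Dlk1 at 0.002, Peg10 at 1.07, Cdkn1c at 1.95 and Grb10 at 0.23. On arrays averaged per RNA isolate, an alternative added after seeing the data, it gave 0 lower and 0 higher, with Dlk1 at 0.009, Peg10 at 1.07 (adjusted p = 0.374), Cdkn1c at 1.95 (adjusted p = 0.089) and Grb10 at 0.24.

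Leaving out each array under the level adjustment, also added after seeing the data, gave 1 to 3 lower and 2 higher, with 3 lower without NCP replicate 2, where Igf2 (-0.73) and Mest (-0.61) passed as well. Over these runs Dlk1 ranged from -0.26 to 0.22, Plagl1 from -0.17 to 0.046, Peg10 from 0.79 to 1.23, Cdkn1c from 1.83 to 2.08 and Grb10 from 0.069 to 0.35. From the deposited values, leaving out each array gave -1.80 to -1.18 for Dlk1, -2.29 to -1.88 for Plagl1, -1.79 to -0.79 for Peg10, -0.49 to -0.19 for Cdkn1c and -1.90 to -1.45 for Grb10.

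The median of the paternally expressed genes was -4.06 centred on receptor genes, -1.34 after quantile normalization, -0.33 after cyclic loess and -0.17 after the level adjustment. That of the maternally expressed genes was -3.41, -0.86, 0.18 and 0.23 in the same order, and -1.22 against the control array of the shared date. After quantile normalization, cyclic loess and the level adjustment the exact permutation p of Peg10 minus Sgce was 0.0167 each, not adjusted over the pairs. Its change was 1.37, 1.19 and 1.31 in the same order, and -0.22 to 0.78 with an array left out. That of Peg3 minus Usp29 was -3.15 against the control arrays of the NCP series, -3.27 with isolates averaged and -3.49 to -3.16 with an array left out, and in some of these designs no p under the threshold can be reached.

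For genes outside the set signs were followed under the alternatives only for part of the genes named with values. Among these, centring on receptor genes turned Igf2bp1 (-1.08), Sox10 (-0.69), Mkrn3 (-0.18), Dio3 (-0.34), Sfmbt2 (-0.67), Ascl2 (-0.88), Tssc4 (-1.03), Calcr (-1.07), Irs4 (-0.94), Lin28a (-0.62), Lin28b (-0.38), Dppa3 (-0.14), Dnmt3l (-0.42), Cdkn2a (-0.61), Mir483 (-1.57) and Mir335 (-1.03). Cyclic loess turned Ascl2 (-0.025), Dnmt3l (-0.044), Mir376c (-0.046), Mir341 (0.33) and Ndn (1.15). The level adjustment turned Ascl2 (-0.05), Calcr (-0.001), Igfbp3 (0.025), Ctcf (0.017), Dnmt3l (-0.065), Mir376c (-0.24), Mir341 (0.30) and Ndn (1.09), and centring on array medians turned Mir483 (-0.002). With an array left out Mir483 ranged from -0.066 to 0.24 and Ndn from -1.63 to 0.31.

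Of all probe sets 7747 were lower and 11158 higher. Isolate averaging gave 4183 and 5761, centring on receptor genes 21976 and 1338, the control array of the shared date 691 and 364, cyclic loess 4506 and 4777, the level adjustment 2336 and 2903. Quantile normalization gave 6370 higher, and the filter on dim probe sets 3100. The cause of these differences was not tested. Replicate numbers were given in accession order and do not pair the groups. No paired analysis was possible because the groups share no replicate numbers in the labels.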
